A study of Mus musculus with 10 samples.

Results

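Matricellular proteins are secreted into the extracellular matrix but act mainly on cell adhesion and signalling rather than as structural fibres. The 10 genes described here encode tenascin-C (Tnc), periostin (Postn), thrombospondins 1 and 2 (Thbs1, Thbs2), the CCN proteins Cyr61 and Ctgf, SPARC (Sparc), nephronectin (Npnt), spondin 2 (Spon2) and fibulin 1 (Fbln1). They were taken by symbol from a table of 37298 genes, in which each has 1 row, and, since they were picked with results of these libraries in view, they count as chosen by their FPKM differences between the genotypes. Those differences are therefore given as a description and support nothing by themselves. All 10 passed the filter on low values, a mean of at least 1 FPKM (fragments scaled by transcript length and by the mapped fragments of the library), which left 14455 tested genes.

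Expression was measured by RNA sequencing in hair follicle stem cells (HFSCs), the resting stem cells of the bulge, sorted from telogen back skin as integrin α6hi, CD34+, ScaI- and YFP+ cells of mice of a mixed C57BL6 background. The 2 libraries labelled Sox9 cKO come from animals in which RU486 activated CrePGR, a recombinase that this drug switches on, and the 2 control libraries come from animals called Het in the titles and wild type in the genotype field. Both replicate 1 libraries are from males of postnatal day 75 that received RU486 from day 48 to 61, and both replicate 2 libraries are from females of day 80 that received it from day 53 to 66. Per the labels' protocols the controls received RU486 as well. Which promoter drives the Cre, how many mice made a library and how deeply it was sequenced was not stated in the labels. The factor SOX9, an HMG-box transcription factor of these stem cells, was mapped by ChIP-seq in untreated CD-1 females of day 52 to 60, with 2 peak lists from HFSCs (8181 and 2989 peaks) and 1 from interfollicular epidermal (IFE) cells, sorted as CD34- (5209 peaks).

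Matricellular proteins bind integrins, syndecans, CD36, CD47 and other receptors, and several also bind growth factors or structural matrix proteins. Cyr61 and Ctgf are widely used readouts of YAP and TAZ, co-activators that act through TEAD factors, and nephronectin made by bulge cells of the mouse anchors the arrector pili muscle to the follicle.

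Sox9 itself was not lower in both cKO-labelled libraries, which had 71.3 and 80.5 FPKM, against 82.7 and 46.5 FPKM in the controls in the order of the replicates, and the value covers the whole gene rather than the deleted part. Directions below therefore follow the labels. Of the bulge markers, Krt15 lay between 8703 and 10894 FPKM, and Cd34, a sorting marker, had 459.5 and 463 FPKM in the cKO-labelled libraries and 652 and 680 FPKM in the controls. Of 8 bulge markers 5 were lower in both pairs and 1 was higher, beside 29.6% and 28.4% of tested genes. Lhx2, a transcription factor of bulge stem cells, had 114 and 87.1 FPKM in the cKO-labelled libraries and 359 and 195 FPKM in the controls, and it was the only bulge marker called, with the replicate number as a block (limma, log2 change -1.40, adjusted p = 0.0273). The keratins Krt10, Krt77 and Krt1 of differentiating epidermis lay at 1729 to 3973, 918 to 1902 and 387 to 551 FPKM. Ly6a, the gene of the marker ScaI that was sorted against, lay at 23.8 to 45.8 FPKM. The part of other epidermal cells in the libraries was not tested. All 5 endothelial markers and 7 of 9 fibroblast markers stayed under 1 FPKM in every library, Dcn, Pdgfra and Lum among them. Col1a2 lay between 7.40 and 21.9 FPKM and Col1a1 between 0.336 and 6.99 FPKM. The 5 smooth muscle and pericyte markers summed to 41.0 FPKM in the replicate 2 cKO-labelled library, mostly from Acta2 at 35.8 FPKM, and to between 2.02 and 3.0 FPKM in the other 3 libraries.

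Since FPKM is scaled by length, the levels of different genes can be set side by side. Postn was the most abundant of the 10, at 950.3 to 1390 FPKM, and lay above at least 99.2% of tested genes in every library. Ctgf followed at 315 to 901 FPKM, Cyr61 at 259 to 985 FPKM, Sparc at 134 to 288 FPKM and Thbs1 at 62.3 to 245 FPKM. Fbln1 lay between 55.8 and 78.7 FPKM, Npnt between 15.4 and 38.5 FPKM, Thbs2 between 7.30 and 34.4 FPKM, Tnc between 5.35 and 27.7 FPKM and Spon2 between 4.58 and 12.8 FPKM. In this order the ranges over the 4 libraries did not overlap for 2 pairs of neighbours, Postn with Ctgf and Fbln1 with Npnt. Thbs1 lay above Fbln1 within each library, though in replicate 2 by little, and Cyr61 in the replicate 1 cKO-labelled library exceeded the lowest Postn value. The 10 genes together held 0.541% and 0.255% of all FPKM in the cKO-labelled libraries and 0.545% and 0.272% in the controls, so that the summed share was lower in both replicate 2 libraries. Their sum was 3160 and 2306 FPKM in the cKO-labelled libraries, against 3030 and 2142 FPKM in the controls. The total over all genes rose, from 584125 to 903766 FPKM in the cKO-labelled libraries and from 555420 to 786914 FPKM in the controls. The lower share therefore holds both a smaller sum and a larger total.

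**Figure D1:**
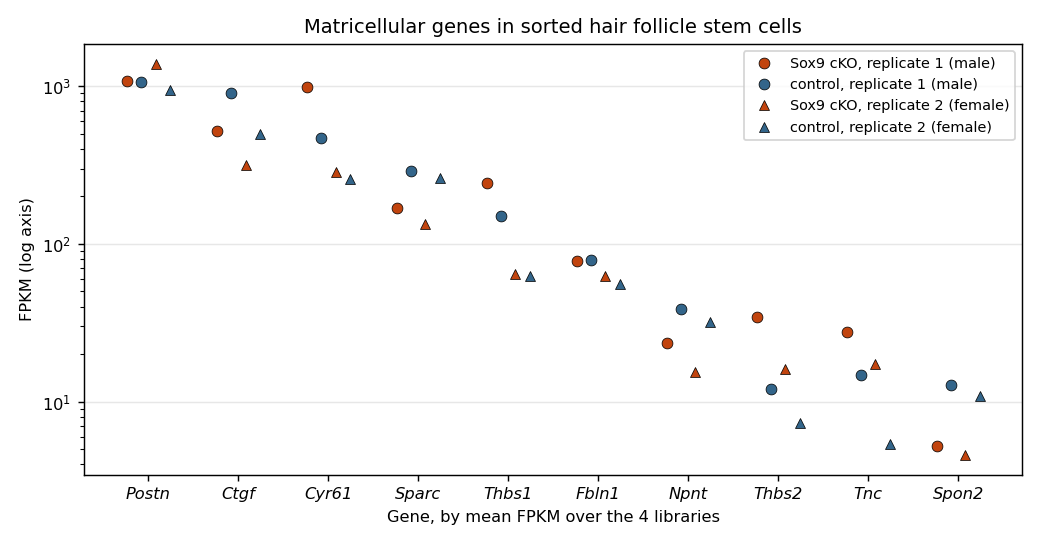
FPKM (log axis) of the 10 matricellular genes in each of the 4 RNA libraries, ordered by mean; colour gives the genotype label and shape the replicate, and each point is 1 library. Postn stays at or above 950.3 FPKM in every library, and Spon2 is lowest by mean, with both cKO-labelled libraries under both controls.

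Between genotypes, 5 of the 10 genes were higher in the cKO-labelled library in both same-numbered pairs, 4 were lower in both and 1 went opposite ways; of all tested genes, 28.4% were higher in both pairs and 29.6% lower in both. Tnc, Thbs2, Cyr61, Thbs1 and Postn were the 5 that were higher, and Sparc, Ctgf, Npnt and Spon2 the 4 that were lower. At least 2-fold apart in both pairs were Thbs2 (higher) and Spon2 (lower), beside 0.470% of tested genes. The FPKM of the 2 groups did not overlap for 6 genes, 3 with cKO higher (Tnc, Thbs2, Postn) and 3 with cKO lower (Sparc, Npnt, Spon2), beside 5.47% and 8.42% of tested genes, 13.9% in all. The median log2 change of the 10 was 0.18, beside -0.0064 over all tested genes, and it lies between the genes above and those below 0 and describes neither. In limma with genotype alone, the fit planned as the main one, 0% of tested genes were called at an adjusted p under 0.05 (93 had an unadjusted p under 0.05), so none of the 10. With the replicate number as a block, 0.284% of tested genes were called, and of the 10 only Thbs2. Nothing is read from these counts about the 10 genes, whose choice drew on the same comparison.

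**Figure D2:**
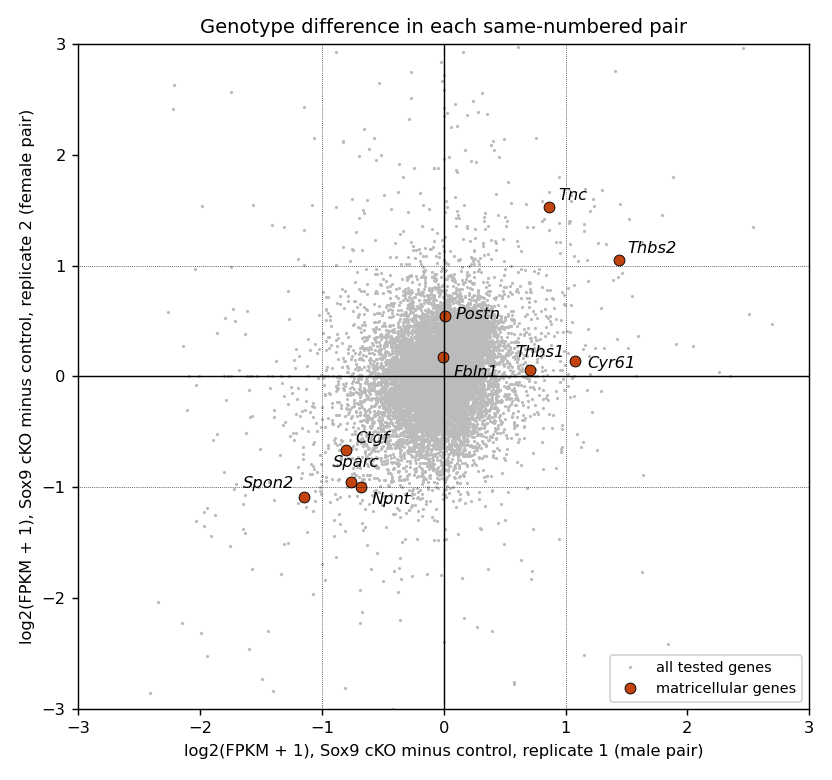
Difference in log2(FPKM + 1), Sox9 cKO minus control, in the male pair (x axis) and in the female pair (y axis); grey points are the 14455 tested genes, of which 25 lie outside the axes, orange points the 10 matricellular genes, and dotted lines mark 2-fold. Thbs2 and Spon2 lie beyond 2-fold in both pairs, on opposite sides, and Cyr61 and Thbs1 lie away from 0 in the male pair only.

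Tnc encodes tenascin-C, a large glycoprotein with several arms that binds fibronectin and integrins and loosens cell adhesion. Tnc (ENSMUSG00000028364; mm9 chr4:63620818-63810958) stood at 27.7 and 17.3 FPKM in the cKO-labelled libraries, against 14.7 and 5.35 FPKM in the controls. Both cKO-labelled libraries were above both controls, by 1.88-fold in the male pair and 3.23-fold in the female pair. On the log2(FPKM + 1) scale used for all tests, which understates changes of low genes, the mean change was 1.20 ± 0.54 (SE, genotype alone; 0.19 with the replicate block). It was smallest, at 0.54, when the replicate 2 control was left out and largest, at 1.85, when the replicate 1 control was. Every SE given here is limma's moderated one, which draws on the spread of all tested genes. It is therefore not the spread of the gene's own libraries. HFSC list 1 held 4 peaks around Tnc, of which 2 lay inside the locus, 1 lay 573 bp below it and 1 lay 6.22 kb above it, and neither other list held any within 50 kb. The locus of the table, 190 kb long, is shared with 8030451A03Rik and Gm11216, whereas RefSeq's Tnc is 87.2 kb long, so a peak inside the locus need not lie inside Tnc. For the same reason, a peak outside the locus can lie further from Tnc itself than the distance given. The 250 bases before the outermost RefSeq start (build GRCm38.p6, which is not that of the peaks) are shown because they hold the SOX core ACAAT, searched on both strands. Capitals mark it, at 231 and 121 bases before the start, and 28.2% of all such promoters hold it at least once.
Tnc promoter, chr4:64047016-64047265, minus strand: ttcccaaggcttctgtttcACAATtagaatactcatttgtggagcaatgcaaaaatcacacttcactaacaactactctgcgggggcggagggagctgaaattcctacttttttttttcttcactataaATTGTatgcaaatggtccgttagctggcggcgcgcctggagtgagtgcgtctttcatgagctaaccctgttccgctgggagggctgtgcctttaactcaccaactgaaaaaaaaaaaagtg

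Postn encodes periostin, a fasciclin-domain protein that binds integrins and collagen. Postn (ENSMUSG00000027750; mm9 chr3:54165030-54194961) stood at 1074 and 1390 FPKM in the cKO-labelled libraries, against 1068 and 950.3 FPKM in the controls. The male pair was nearly level, at 1.01-fold, and the female pair differed by 1.46-fold. The mean log2 change of 0.28 ± 0.67 (SE, genotype alone, and 0.17 with the replicate block) therefore rests on the female pair. Quantile normalization left 0.0015 of it, and leaving out 1 library gave values between 0.092 and 0.46. The library with the highest Postn is also the one with the highest summed smooth muscle and pericyte markers, and the part of those cells in it was not tested. HFSC list 1 held a single peak, inside the locus with its centre 1.64 kb from the lower edge, and the other lists held none within 50 kb.

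Thbs1 and Thbs2 encode trimeric thrombospondins that bind CD36, CD47 and integrins and restrain the growth of blood vessels. Thrombospondin 1, unlike thrombospondin 2, also activates latent TGF-beta. Thbs2 (ENSMUSG00000023885; mm9 chr17:14802506-14831269) stood at 34.4 and 16.1 FPKM in the cKO-labelled libraries, against 12.1 and 7.30 FPKM in the controls. Both pairs differed by over 2-fold, 2.84-fold in the male and 2.21-fold in the female pair, and 0.194% of tested genes were at least 2-fold higher in both. The mean log2 change was 1.24 ± 0.49 (SE, genotype alone; 0.16 with the replicate block), and limma over all genes gave an adjusted p = 1.00 with genotype alone and 0.0471 with the block. Leaving out the replicate 1 cKO-labelled library gave 0.72, and leaving out the other one gave 1.76. The call with the block was lost at a pseudocount of 0.1, without the filter, without a mean trend and with quantile normalization. No SOX9 peak of any list lay within 50 kb of Thbs2. Within 100 kb lay a peak of both HFSC lists, and the IFE list reached the gene in that window too. Its RefSeq promoter is shown beside that of Tnc, since these are the 2 genes with the highest change, and it holds neither the SOX core nor GGAATG, the core bound by TEAD factors, on either strand.
Thbs2 promoter, chr17:14694263-14694512, minus strand: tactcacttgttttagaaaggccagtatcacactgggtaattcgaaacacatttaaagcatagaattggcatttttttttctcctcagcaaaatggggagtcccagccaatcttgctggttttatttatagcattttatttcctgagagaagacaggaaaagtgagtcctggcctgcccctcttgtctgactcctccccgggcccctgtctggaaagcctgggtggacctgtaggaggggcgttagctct

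Thbs1 (ENSMUSG00000040152; mm9 chr2:117937611-117952869) was more abundant and less steady, at 245 and 64.9 FPKM in the cKO-labelled libraries, against 149 and 62.3 FPKM in the controls. The male pair differed by 1.64-fold and the female pair by 1.04-fold. The mean log2 change was 0.38 ± 0.79 (SE, genotype alone, and 0.17 with the replicate block). The sign turned when the replicate 1 cKO-labelled library was left out, at -0.57, and when the replicate 2 control was, at -0.24. Within a library, which takes out library scaling, the ratio of Thbs2 to Thbs1 was 0.141 and 0.249 in the cKO-labelled libraries, against 0.0810 and 0.117 in the controls, a ratio chosen after its values were seen. The IFE list held 2 peaks inside the Thbs1 locus, centred 1.44 kb from its lower and 2.48 kb from its upper edge. Neither HFSC list held a peak within 50 kb, although HFSC list 1 reached the gene within 100 kb.

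Cyr61 and Ctgf, also named Ccn1 and Ccn2, encode matrix-bound CCN proteins that signal through integrins and heparan sulfate, and both are rapidly induced by growth factors and mechanical stress. Cyr61 (ENSMUSG00000028195; mm9 chr3:145309934-145312949) stood at 985 and 285 FPKM in the cKO-labelled libraries, against 466 and 259 FPKM in the controls. The male pair differed by 2.11-fold and the female pair by 1.10-fold, so the replicate 1 cKO-labelled library stood apart from the other 3. The mean log2 change was 0.61 ± 0.79 (SE, genotype alone, and 0.22 with the replicate block). It became -0.28 without that library and 1.5 without the other cKO-labelled library, and quantile normalization gave 0.36. Ctgf (ENSMUSG00000019997; mm9 chr10:24269246-24318489) went the other way, at 517 and 315 FPKM in the cKO-labelled libraries, against 901 and 499.9 FPKM in the controls. The cKO-labelled libraries held 57.4% and 63.1% of their own control, although the groups overlap because the male cKO value exceeds the female control value. The mean log2 change of Ctgf was -0.73 ± 0.63 (SE, genotype alone; 0.13 with the replicate block), and leaving out 1 control moved it most, to -0.31 for the male and -1.16 for the female control. The ratio of Cyr61 to Ctgf within a library, also chosen after its values were seen, was 1.90 and 0.905 in the cKO-labelled libraries, against 0.518 and 0.517 in the controls. The 2 controls gave nearly the same ratio, and both cKO-labelled libraries lay above it.

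Around Cyr61, HFSC list 1 held peaks 6.86 kb and 24.6 kb above the locus, and the second overlapped a peak of the IFE list. Around Ctgf, a peak in both HFSC lists lay 49.4 kb above the locus, inside the locus of Enpp1, and a peak of list 1 lay 14.2 kb below. The table's Ctgf locus of 49.2 kb is shared with Gm6893 and Gm15270, while RefSeq's gene is 3.24 kb long, so the distance from the gene itself is larger than, or equal to, the distance given. The Cyr61 promoter is shown for its TEAD core, in capitals as the reverse complement CATTCC beginning 103 bases before the start. That core occurs in 12.6% of all promoters of this length and in 1 of the 7 of these genes that matched a RefSeq promoter.
Cyr61 promoter, chr3:145649986-145650235, minus strand: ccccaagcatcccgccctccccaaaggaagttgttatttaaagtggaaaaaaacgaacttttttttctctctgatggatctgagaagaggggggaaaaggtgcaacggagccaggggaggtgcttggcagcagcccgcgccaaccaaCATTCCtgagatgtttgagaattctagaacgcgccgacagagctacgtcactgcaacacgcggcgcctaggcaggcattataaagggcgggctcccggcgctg

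Sparc encodes a calcium- and collagen-binding glycoprotein that regulates matrix assembly. Sparc (ENSMUSG00000018593; mm9 chr11:55208001-55233582) stood at 170 and 134 FPKM in the cKO-labelled libraries, against 288 and 260 FPKM in the controls. Both cKO-labelled libraries were below both controls, at 58.9% and 51.6% of their own control, and the mean log2 change was -0.86 ± 0.43 (SE, genotype alone; 0.12 with the replicate block). Left-out libraries moved it only between -1.02 and -0.69. Counted once for each list, Sparc had the most SOX9 peaks within 50 kb of the 10 genes, 6 of HFSC list 1, 3 of HFSC list 2 and 1 of the IFE list. Several of these lay closer to, or inside, the locus of another gene, whereas every peak counted for Fbln1 had Fbln1 as the nearest tested gene. The HFSC lists shared a peak about 10.4 kb below the locus, for which Sparc was the nearest tested gene, and one about 17.8 kb above it, which lay closer to Atox1. Another shared peak, 48.9 kb above, also overlapped the IFE peak and lay inside the locus of G3bp1. Of the peaks in list 1 alone, the one 15.6 kb below was nearest to Sparc. The one 29.4 kb below lay closer to Fat2, and the one 26.5 kb above lay inside the locus of Atox1.

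Npnt encodes nephronectin, a basement membrane protein and ligand of integrin α8β1. Npnt (ENSMUSG00000040998; mm9 chr3:132544708-132613255) stood at 23.7 and 15.4 FPKM in the cKO-labelled libraries, against 38.5 and 31.8 FPKM in the controls. Both cKO-labelled libraries were below both controls, at 61.5% and 48.4% of their own control, with a mean log2 change of -0.84 ± 0.37 (SE, genotype alone; 0.15 with the replicate block). Without the replicate 2 cKO-labelled library it was -0.55. The α8 subunit of its receptor, Itga8, was listed at 0 in both replicate 2 libraries and at most at 0.0862 FPKM in the others. HFSC list 1 held peaks 17.3 kb and 22.4 kb below the locus, the second of which lay closer to Tbck. The IFE list instead held a peak at its upper edge, with the centre 66 bp inside it. RefSeq places Npnt on the minus strand, so that this is the edge where transcription starts, and the promoter is shown for that reason. It has a GC content of 74.0% and holds neither core, so it carries no capitals.
Npnt promoter, chr3:132950292-132950541, minus strand: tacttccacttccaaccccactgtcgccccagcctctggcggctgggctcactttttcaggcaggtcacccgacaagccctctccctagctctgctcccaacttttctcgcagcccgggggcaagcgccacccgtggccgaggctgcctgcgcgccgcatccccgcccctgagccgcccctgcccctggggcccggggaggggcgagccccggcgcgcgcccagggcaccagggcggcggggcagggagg

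Spon2 encodes spondin 2 (mindin), a secreted protein that binds integrins and takes part in innate immunity. Spon2 (ENSMUSG00000037379; mm9 chr5:33556166-33560887) stood at 5.26 and 4.58 FPKM in the cKO-labelled libraries, against 12.8 and 10.9 FPKM in the controls. The cKO-labelled libraries held 40.9% and 42.1% of their own control, so the pairs were alike, and 0.277% of tested genes were at least 2-fold lower in both pairs. The mean log2 change was -1.12 ± 0.32 (SE, genotype alone; 0.17 with the replicate block). No peak of any list lay within 50 kb of Spon2, and within 100 kb only the IFE list held one.

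Fbln1 encodes fibulin 1, a calcium-binding glycoprotein of basement membranes and elastic fibres. Fbln1 (ENSMUSG00000006369; mm9 chr15:85036378-85116965) stood at 78.4 and 63.0 FPKM in the cKO-labelled libraries, against 78.7 and 55.8 FPKM in the controls. The pairs gave 0.996-fold and 1.13-fold and the groups overlap. The mean log2 change was 0.08 ± 0.38 (SE, genotype alone, and 0.13 with the replicate block). Fbln1 was the only one of the 10 genes with a peak of both HFSC lists inside its locus, centred about 27.9 kb from the lower edge (list 1, mm9 chr15:85063908-85064604), and the IFE list held an overlapping peak. List 1 held another peak inside the locus, centred 4.99 kb from the lower edge, and one 12.2 kb above the locus that overlapped an IFE peak. A further IFE peak was centred 51 bp inside the lower edge, which is the start of Fbln1, on the plus strand in RefSeq. The Fbln1 promoter holds the SOX core at 221 and 103 bases before the start, the first within the longer AACAAT, here as ATTGTT. The longer core occurs in 9.62% of all promoters of this length, and of the 7 matched genes Postn and Fbln1 hold it and Tnc, Postn and Fbln1 hold the SOX core.
Fbln1 promoter, chr15:85205699-85205948, plus strand: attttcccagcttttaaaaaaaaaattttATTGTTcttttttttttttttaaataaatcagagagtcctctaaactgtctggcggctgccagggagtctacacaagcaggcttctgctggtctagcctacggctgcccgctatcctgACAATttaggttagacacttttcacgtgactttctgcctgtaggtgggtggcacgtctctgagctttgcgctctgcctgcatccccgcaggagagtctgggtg

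Taking the peak lists over the 10 genes, 33 entries lay within 50 kb of a locus, 20 of them from HFSC list 1, 5 from HFSC list 2 and 8 from the IFE list. A site held by more than 1 list counts once for each list, so there are fewer distinct sites than entries. A peak in both HFSC lists (overlap of at least 1 bp) lay within 50 kb of 3 of the 10 genes, Sparc, Ctgf and Fbln1, beside 26.5% of tested genes. Counting a peak of each HFSC list whether or not they overlap gave the same 3 genes, beside 31.9%. HFSC list 1 alone gave 7 genes, beside 54.1% of tested genes, and HFSC list 2 gave 3, beside 38.6%. The IFE list gave 5, namely Thbs1, Sparc, Cyr61, Npnt and Fbln1, beside 53.8%. These counts are near the background, and restricting the background to loci no shorter and no longer than those of the 10 genes moved the share for both HFSC lists only to 27.7%. The longer lists reach more genes, so a gene with a peak in list 1 and none in list 2 is not shown to differ between the libraries. Of the 33 entries, 11 lay inside a locus and 23 had one of the 10 genes as the nearest tested gene.

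**Figure D3:**
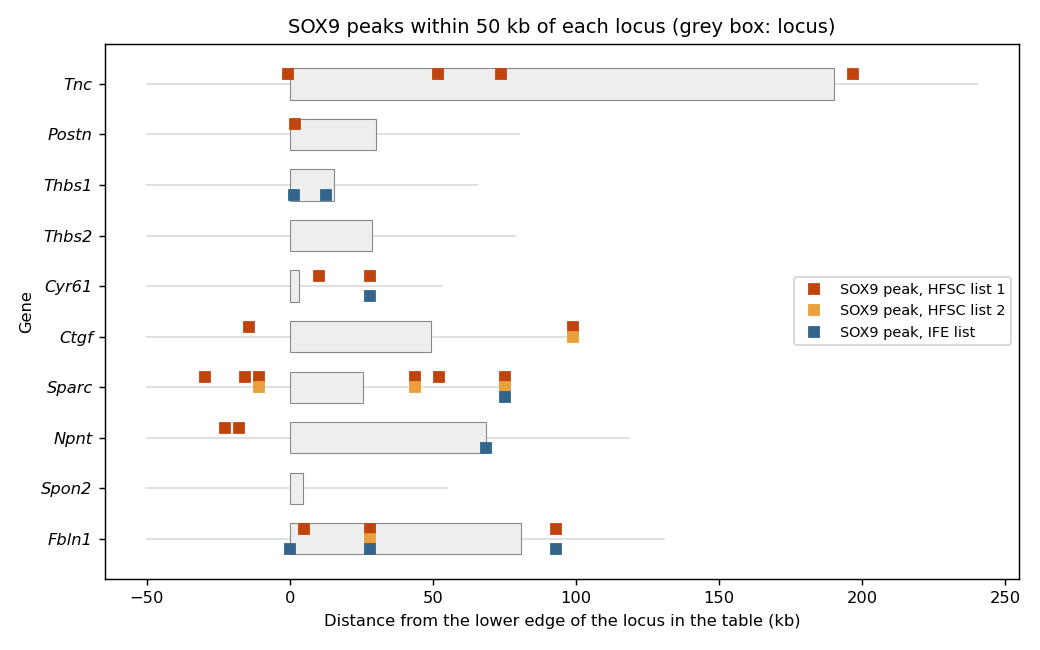
SOX9 peaks (squares, at their centres) within 50 kb of each gene, as distance in kb from the lower edge of the locus of the table (grey box), for HFSC list 1, HFSC list 2 and the IFE list. Sparc has 10 entries, several of them nearer to another gene, and Thbs2 and Spon2 have none. A site held by several lists is drawn once for each.

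Far more genes were called between the replicates than between the genotypes. Whether this difference played a part in choosing the 10 genes is not known, so the count of called genes supports nothing beyond the single values. Of the 10 genes, 7 fell in replicate 2 relative to replicate 1 in limma with genotype in the model, and none rose, beside 24.1% of tested genes called lower, 25.8% called higher and 50% in all. Replicate 2 is female, older and treated later than replicate 1, and sex, age, treatment days and library preparation cannot be told apart. The cell markers moved as well: 5 of 8 bulge markers were called lower in replicate 2, Nfatc1 (log2 difference -1.78), Lgr5 (-1.57) and Itga6 (-1.24) among them, while 4 of 5 markers of suprabasal and interfollicular epidermis, such as Krt10 (0.87), and the immune marker Cd74 (1.01) were called higher. Their part in the differences of the 10 genes was not tested. Genes outside the marker lists moved too: the ribosomal protein genes Rpl13, Rps9 and Rpl8 were higher in replicate 2, and Nfat5, Polr2a and Apc were lower. The summed FPKM of all genes was 903766 against 584125 in the cKO-labelled libraries and 786914 against 555420 in the controls, replicate 2 first. Whether the replicate difference follows transcript length or RNA quality was not tested, so the falls below are not assigned to cells, sex or age. Thbs1 fell by 1.57 ± 0.17 on the log2 scale (SE; adjusted p = 0.000542), with 64.9 FPKM in the replicate 2 and 245 FPKM in the replicate 1 cKO-labelled library, and 62.3 and 149 FPKM in the same order in the controls. Cyr61 fell by 1.32 ± 0.22 (adjusted p = 0.00272), Tnc by 0.98 ± 0.19 (adjusted p = 0.00586), Thbs2 by 0.85 ± 0.16 (adjusted p = 0.00519) and Ctgf by 0.78 ± 0.13 (adjusted p = 0.00265). Npnt fell by 0.43 ± 0.15 (adjusted p = 0.0467) and Fbln1 by 0.40 ± 0.13 (adjusted p = 0.0346), and each of these 7 genes was lower in both genotypes. Sparc at -0.24, Spon2 at -0.19 and Postn at 0.10 did not pass (limma, adjusted p between 0.146 and 0.637). The sign for Postn turned under quantile normalization, at -0.84, where 9 genes passed, Sparc and Postn included. In that fit 3311 of 14455 tested genes were called lower and 3386 higher. Npnt lost its call at a pseudocount of 0.1, and Npnt and Fbln1 lost theirs without a mean trend. Without the trend 5 of the 10 passed, beside 3292 of 14455 tested genes called lower and 3442 higher. When the replicate 2 cKO-labelled library was left out, the difference of Npnt was 0.074. Without the filter Thbs1 alone passed, beside 1319 of 24860 genes called lower and 1974 higher. With genotype out of the model only Cyr61 and Thbs1 passed, beside 3026 of 14455 tested genes called lower and 3240 higher. With 1 library left out, 1 of the replicates holds a single library, so nothing is read from the calls of those fits.

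**Figure D4:**
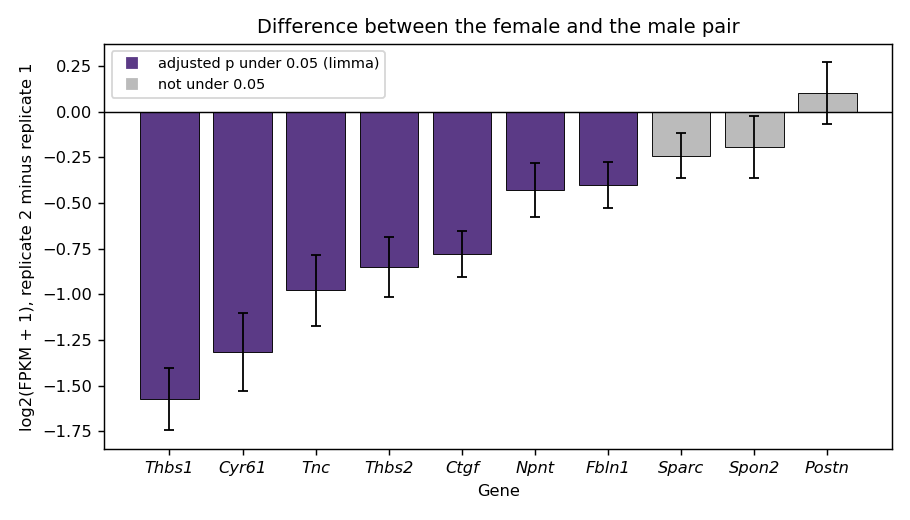
Difference in log2(FPKM + 1), replicate 2 (female) minus replicate 1 (male), averaged over the genotypes. Bars are limma estimates, error bars 1 moderated SE, and purple bars have an adjusted p under 0.05 (limma). Thbs1 at -1.57 and Cyr61 at -1.32 have the lowest values, and Postn, at 0.10 here and -0.84 under quantile normalization, is the only one above 0.

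Other genes of the same system were set beside the 10. Of 27 further matricellular genes, 13 were tested and 14 stayed under 1 FPKM in every library. None of the 13 was called between genotypes in either limma fit, and 2 were higher and 5 lower in both pairs. Tgfbi, which encodes an integrin-binding relative of periostin, was the most abundant at 598 to 683 FPKM, with 683 and 598 FPKM in the cKO-labelled libraries, against 678 and 644 FPKM in the controls. Smoc2, a calcium-binding SPARC relative, lay between 18.4 and 34.3 FPKM. Fstl1, a secreted follistatin-like member of the SPARC family, stood at 5.41 and 6.47 FPKM in the cKO-labelled libraries, against 14.3 and 9.85 FPKM in the controls (log2 change -0.90, limma with the block, adjusted p = 0.249). Efemp2, a fibulin of elastic fibres, had a log2 change of -0.58 (adjusted p = 0.262 in the same fit).

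Of 18 receptor genes 13 were tested, and none was called between genotypes, with 1 higher and 9 lower in both pairs. Sdc4, a heparan sulfate proteoglycan, was the most abundant at 263 to 512 FPKM, and the integrin subunits Itga6, Itgb1 and Itgav lay at 58.2 to 151, 71.1 to 125 and 29.9 to 57.9 FPKM. Itga9, a subunit that binds tenascin-C, was listed at 0 in 3 libraries and at 0.00290 FPKM in the other. The 2 receptors with the smallest p in the blocked fit of limma were Itgb8, a subunit that with αv activates latent TGF-beta, at a log2 change of -0.76 (adjusted p = 0.284), and the thrombospondin receptor Cd47 at -0.46 (adjusted p = 0.376).

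Of 20 targets of YAP and TAZ other than the CCN genes, 17 were tested, and none was called between genotypes, with 4 higher in both pairs, 4 lower in both and 9 opposite. Myof, a membrane repair protein, had a log2 change of -0.82 (limma, blocked, adjusted p = 0.103) and F3, the clotting initiator tissue factor, one of -0.73 (adjusted p = 0.130). The most abundant were Igfbp3, at 99.3 to 241 FPKM, and the receptor tyrosine kinase Axl, at 88.1 to 150 FPKM. Of 13 genes of YAP, the TEAD factors, SRF and their regulators, all tested, none was called, and 10 were lower in both pairs. The smallest p were those of Mkl1, a co-activator of SRF, with a log2 change of -0.71 (limma with the block, adjusted p = 0.183), and Tead4, with -0.64 (adjusted p = 0.314). The most abundant, Yap1 and Tead3, had changes of -0.10 and -0.13. Over all tested genes 29.6% were lower in both pairs, and these counts were not tested as lists.

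Fibroblast markers summed to 22.7 and 22.8 FPKM in the cKO-labelled libraries, against 17.1 and 9.16 FPKM in the controls, most of it Col1a2, which had 21.9 and 13.8 FPKM in the cKO-labelled libraries and 14.8 and 7.40 FPKM in the controls. Col1a2 was higher in both pairs, as were Tnc and Thbs2, while Col1a1, the only other one tested, had 0.336 and 6.99 FPKM in the cKO-labelled libraries and 1.80 and 0.802 FPKM in the controls and so went opposite ways. Of the defining markers, Pdgfra reached 0.136 FPKM at most, Dcn 0.341 FPKM, and Lum, Dpt and Twist2 were listed at 0 in at least 1 library each. Lum and Col3a1 were highest in the replicate 2 cKO-labelled library, at 0.386 and 0.785 FPKM, against 0.0147 and 0.0233 FPKM in its control. Col1a1 and the muscle markers Acta2 and Des (5.01 FPKM, against 0 in the others) were also highest there. Col1a2, Pdgfra, Dpt, Twist2 and Fap were highest in another library. The part of such cells in these differences was not tested, and fewer cells of a type and less RNA per cell cannot be told apart in these bulk samples.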

How the data were processed

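Expression was deposited by the authors as FPKM, per the file headers, in 1 table with a column for each of 4 RNA libraries. Per the submitters' processing notes, Cufflinks 1.0.3, Bowtie, TopHat and TopHat2 were used, in roles not given, with build mm9. SOX9 peaks were deposited as 3 lists of positions (peak caller not given in the sources used here), and the 3 input libraries were not analysed here. Ratios of low FPKM values showed no step that would give relative depth (at most 5.03% fell in 1 bin), so depth is unknown and no count model was used. FPKM depends on the total of each library and on gene length, so a few abundant genes shift all others.

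The test was limma 3.58.1 (R 4.3.3) on log2(FPKM + 1), two-sided, with its empirical Bayes trend and Benjamini-Hochberg adjustment over 14455 genes with a mean of at least 1 FPKM and a threshold of 0.05, with genotype alone or with the replicate number as a block, and for the replicate difference with genotype in the model. The numbers pair the libraries by sex, age and treatment days in the labels, and deviations of same-numbered libraries from the genotype means had a correlation of 0.812 over genes, which are no independent replicates. The 4 libraries differ in genotype, sex or age and so come from different animals. The fits left 2 residual degrees of freedom with genotype alone and 1 with the block. SEs and p-values therefore rest only on the spread among these libraries, moderated towards that of all tested genes. Peaks were counted within 50 kb of the locus of the table, which carries no strand; promoters are RefSeq's 250 bases before the outermost start, matched for 7 of 10 genes, not for Thbs1, Ctgf and Spon2. Where a symbol had 2 rows, the higher was used.

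The genes and lists were chosen with earlier results of these data known. Named were the 10 genes, Sox9 and, of each pathway list, called genes, the 2 smallest p with the block and the 2 highest means; marker lists are given by sums and ranges, with called genes and a few others named. The alternatives were other pseudocounts, filters, scalings, windows and left-out libraries.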

Additional observations from a re-analysis of the deposited data

Results flagged for a closer look

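In 11 named genes the same-numbered pairs moved in opposite directions. Of all tested genes, only 28.4% were higher in both pairs and 29.6% lower in both, so pairs that do not move alike are common. The difference between the male and the female pair was not tested, since each pair has 1 library per genotype, and nothing is read from the count. On the log2(FPKM + 1) scale, cKO minus control, Sox9 gave -0.21 in the male and 0.78 in the female pair. Fbln1 gave -0.0057 in the male and 0.17 in the female pair. Smoc2 gave 0.12 and -0.25, Tgfbi 0.0093 and -0.11, Igfbp3 0.037 and -0.52, and Yap1 0.088 and -0.28, the male pair first in each case. Among receptors and cell markers, Itgb1 gave -0.060 and 0.27, Krt15 -0.14 and 0.22, Krt10 0.032 and -0.63, Krt77 0.11 and -0.67, and Col1a1 -1.07 and 2.15, in the same order. Of the 10 matricellular genes only Fbln1 is in this group, and its male value is close to 0.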

How the results depend on the processing

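With all 4 libraries, the genotype change of the 10 genes kept its sign under the alternatives run, but quantile normalization brought Postn to 0.0015 and Fbln1 to 0.041. With genotype alone no fit of all 4 libraries called a gene. With the replicate block the count of called genes was 41 as planned, 33 at a pseudocount of 0.1, 78 at a pseudocount of 5, 53 with a mean FPKM of at least 5, 45 with upper quartile scaling, 3 with quantile normalization and 0 without the filter or the mean trend. At a pseudocount of 5 the block called Tnc and Thbs2 higher and Sparc and Spon2 lower. With a mean FPKM of at least 5 it called Thbs2 higher and Sparc lower, and with upper quartile scaling only Thbs2, higher. The other alternatives with the block called none of the 10 genes. Without one library and with genotype alone the count lay between 2 and 41, with none of the 10 genes. The genotype change then turned for Thbs1 (-0.57 and -0.24, range -0.57 to 1.33), Cyr61 (-0.28, range -0.28 to 1.5) and Fbln1 (-0.072 and -0.16, range -0.16 to 0.33), without the replicate 1 cKO-labelled library or, for the second values, without the replicate 2 control. Such values carry part of the replicate difference, and the cause was not tested.

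The replicate difference was called for 7221 genes, for 3293 without the filter, and for 0 to 6296 with one library left out, genotype then being out of the model. Upper quartile scaling moved the median of all genes to -0.10, from which changes under it should be read. It gave 8 of the 10 genes, all lower, beside 4188 of 14455 tested genes called lower and 3250 higher. Left-out libraries turned the replicate difference of Sparc (0.14 and 0.23, range -0.72 to 0.23), Npnt (0.074, range -0.93 to 0.074), Spon2 (0.38 and 0.35, range -0.77 to 0.38) and Postn (-0.17, range -0.17 to 0.38); quantile normalization turned Postn to -0.84. Under upper quartile scaling Postn was at -0.015, which is below 0 but above the shifted median of all genes.

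Of the 10 genes, 2 were 2-fold apart in both pairs, beside 0.470% of tested genes. The count was 0 at a pseudocount of 5 (0.166% of tested genes), 1 with quantile normalization (0.436%) and 6 at 1.5-fold (1.86%). The choice of the genes drew on the same comparison, so nothing is read from these counts. A peak in both HFSC lists reached 3 genes within 50 kb (26.5% of tested genes) and 4 within 100 kb (36.1%). It reached 1 within 10 kb (15.6%) or inside the locus (11.9%). HFSC list 1 alone reached 7 within 50 kb (54.1%). The IFE list reached 5 within 50 kb (53.8%) and 7 within 100 kb (65.9%). It reached 3 within 10 kb (36.3%) or inside the locus (28.9%). Depth is unknown, so the precision of low values such as Spon2 and Tnc cannot be given.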
